A study of Homo sapiens with 6 samples.

Results

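The HOX cluster genes are the homeodomain transcription factor genes of the HOXA, HOXB, HOXC and HOXD clusters. Members were taken by name, as every row of the deposited table whose symbol is HOXA, HOXB, HOXC or HOXD followed only by digits. The rule found 39 genes of the 17468 in the table, with 11 in HOXA, 10 in HOXB, 9 in HOXC and 9 in HOXD. RNA was sequenced from Colo800 and A375, both human melanoma cell lines (6 libraries), infected with 1 of 3 hairpin viruses. ETV1-sh2 and ETV1-sh1 are short hairpin RNAs against ETV1, an ETS-family transcription factor, and the third hairpin is scrambled. Each line contributed 1 ETV1-sh2, 1 ETV1-sh1 and 1 scrambled library, all taken 4 days after infection per the series' design text, which gives the infections as duplicates. No source used here says whether a column pools those duplicates. The labels' treatment field also gives a drug for every sample, 5 nM trametinib (a MEK inhibitor) for ETV1-sh2, DMSO for ETV1-sh1 and 1 uM vemurafenib (a BRAF inhibitor) for scrambled, while the design text names none. Their shared treatment protocol describes an siRNA transfection of 48 h followed by 8 h of drug for all 6, where the design text describes hairpin viruses. A hairpin effect and an effect of such a drug cannot be told apart. Nothing in the labels gives clones or separate cultures, so p-values measure only the spread between these 6 libraries.

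HOX proteins give cells along the body axis their position, and the genes stand in their clusters in the order in which they are used from head to tail. Genes with the same number in different clusters form a paralogous group and encode closely related proteins. Most HOX proteins bind DNA together with homeodomain partners of the TALE class, the PBX, MEIS and PKNOX proteins. Polycomb complexes keep silent HOX genes off and the trithorax (MLL) complexes keep active ones on, so that cells in culture often retain the HOX pattern of the tissue they came from. Melanocytes, the cells melanoma arises from, come from the neural crest.

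Levels are in FPKM, which counts fragments per kilobase of transcript with a correction for library size, so levels can be compared between genes. The FPKM values of a library summed to between 589256 and 710498, and 10418 to 11013 genes per library reached 1 FPKM. Absolute depth is unknown. The commonest ratio between low values, shared by 6.53% to 9.14% of the low genes, put the depth of the ETV1-sh2 and ETV1-sh1 libraries of A375 at 2.10 and 1.43 times that of the A375 scrambled library, and the 3 Colo800 libraries at 0.768 to 0.859 times. ETV1 itself stood at 9.798, 54.6 and 180.3 FPKM with ETV1-sh2, ETV1-sh1 and the scrambled hairpin in Colo800, and at 3.46, 34.6 and 82.8 FPKM in A375, so ETV1-sh2 left less ETV1 than ETV1-sh1 in both lines. Of the 11 melanocyte markers in the table, 8 or 9 reached 1 FPKM in each Colo800 library and 4 or 5 in each A375 library. SOX10, the neural crest and melanocyte transcription factor, was high in both lines, at 549, 562 and 712 FPKM in Colo800 and 409.9, 353 and 556 in A375. The pigment enzyme genes DCT and TYR were at most 0.0758 FPKM in A375, against 70.8 to 125 and 14.8 to 84.9 in Colo800.

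Both lines expressed genes of all 4 clusters. In Colo800 33 of the 39 HOX genes reached 1 FPKM in each of the 3 libraries, and in A375 31 did with ETV1-sh2, 31 with ETV1-sh1 and 28 with the scrambled hairpin. A total of 25 genes reached 1 FPKM in all 6 libraries, and 37 in at least 1. The 2 others were HOXB1, the hindbrain gene of the HOXB cluster, which was listed at 0 in 5 libraries and at 0.0361 FPKM in Colo800 with ETV1-sh2, and HOXD12, which ranged from 0 to 0.263 FPKM. The map of HOX levels shows the HOXA and HOXB genes as the most abundant members in Colo800.

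**Figure D1:**
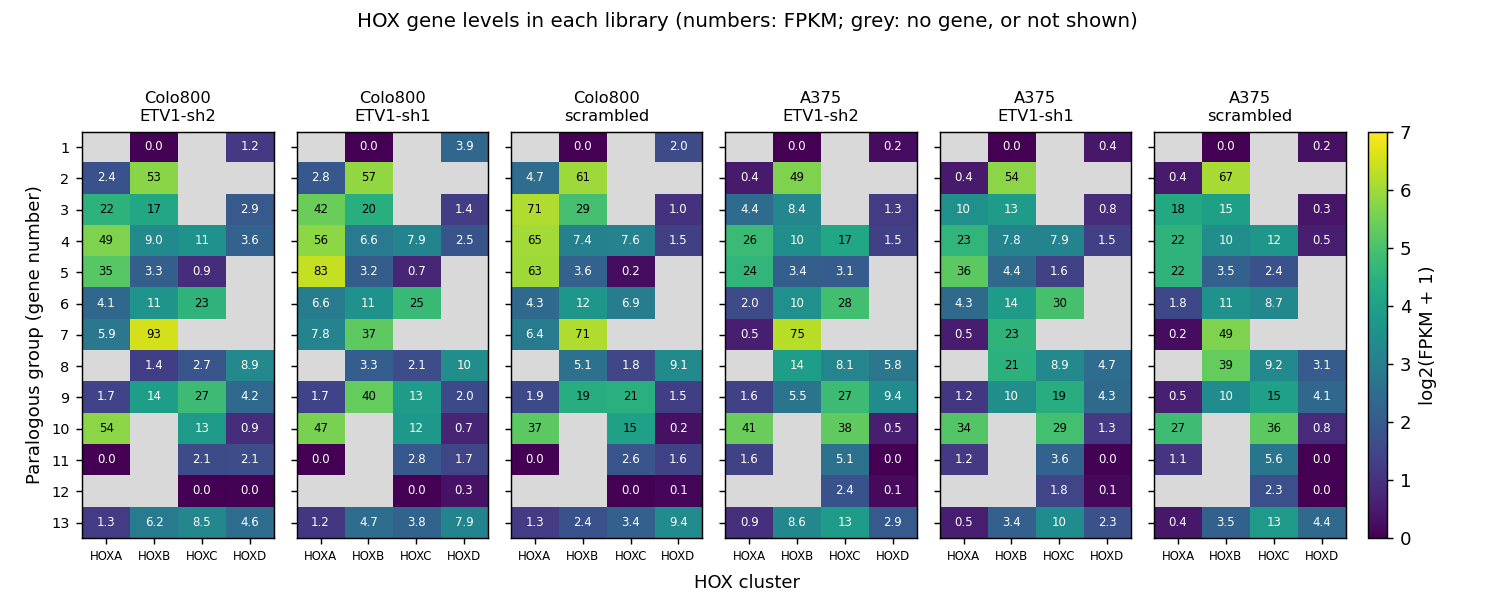
Level of 38 HOX genes in each library, with clusters along the horizontal axis, paralogous groups down the vertical axis and colour giving log2(FPKM + 1). The numbers are FPKM, and grey squares have no gene or one not shown. HOXA3 and HOXA4 are brighter in the 3 Colo800 panels, while HOXC12 is at 0 there and at 1.77 to 2.38 FPKM in A375.

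The clusters took different shares of the HOX total in the lines. HOXA genes summed to 189, 258 and 271 FPKM in Colo800 with ETV1-sh2, ETV1-sh1 and the scrambled hairpin, against 111, 119 and 104 FPKM in A375. HOXC genes were the other way round, with 87.9, 68.4 and 58.4 FPKM in Colo800 against 143, 112 and 104 FPKM in A375. HOXB sums overlapped between the lines, at 208, 183 and 211 FPKM in Colo800 and 184, 151 and 207 FPKM in A375. HOXD was the lowest cluster in every library, with 28.5, 30.3 and 26.4 FPKM in Colo800 and 21.7, 15.4 and 13.5 FPKM in A375. In the scrambled library of Colo800 HOXA held 47.7% of the summed HOX FPKM, HOXB 37.3%, HOXC 10.3% and HOXD 4.66%. In that of A375 HOXA held 24.3%, HOXB 48.3%, HOXC 24.3% and HOXD 3.14%.

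Promoter sequences were taken from RefSeq (GRCh38.p14) and cover 250 bases before to 50 bases after a gene's start. The table held 26 distinct windows for 20 of the 39 HOX genes. Those shown belong to members that the comparisons below turn on: HOXA3, lower with ETV1-sh2; HOXA7 and HOXA11, each expressed mainly in 1 line; and the 1 window that HOXC4 and HOXC5 share. All are written 5′ to 3′ on the strand of the gene, and capitals mark GGAA or its reverse complement TTCC, the core that ETS proteins bind.
HOXA3, chr7:27113793-27114092, minus strand (1 of 7 windows listed for the gene, that with the lowest coordinate): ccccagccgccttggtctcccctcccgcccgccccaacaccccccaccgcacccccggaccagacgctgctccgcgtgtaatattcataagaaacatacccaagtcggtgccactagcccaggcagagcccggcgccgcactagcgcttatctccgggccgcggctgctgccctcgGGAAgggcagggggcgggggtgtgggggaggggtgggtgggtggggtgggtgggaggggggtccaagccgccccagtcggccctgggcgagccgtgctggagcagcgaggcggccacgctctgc
HOXA7, chr7:27156626-27156925, minus strand: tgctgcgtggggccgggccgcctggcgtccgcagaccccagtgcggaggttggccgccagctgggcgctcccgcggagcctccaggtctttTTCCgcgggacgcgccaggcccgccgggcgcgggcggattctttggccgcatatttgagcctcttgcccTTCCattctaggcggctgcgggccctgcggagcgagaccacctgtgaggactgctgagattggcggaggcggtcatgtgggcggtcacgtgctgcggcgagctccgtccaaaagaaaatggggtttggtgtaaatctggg
HOXA11, chr7:27185183-27185482, minus strand: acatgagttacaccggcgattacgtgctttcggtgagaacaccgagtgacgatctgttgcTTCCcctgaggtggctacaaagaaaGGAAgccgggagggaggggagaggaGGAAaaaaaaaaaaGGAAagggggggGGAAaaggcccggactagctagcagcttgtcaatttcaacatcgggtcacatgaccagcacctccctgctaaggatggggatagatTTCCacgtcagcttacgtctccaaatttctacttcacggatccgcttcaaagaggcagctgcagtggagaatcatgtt
HOXC4 and HOXC5, chr12:54016638-54016937, plus strand: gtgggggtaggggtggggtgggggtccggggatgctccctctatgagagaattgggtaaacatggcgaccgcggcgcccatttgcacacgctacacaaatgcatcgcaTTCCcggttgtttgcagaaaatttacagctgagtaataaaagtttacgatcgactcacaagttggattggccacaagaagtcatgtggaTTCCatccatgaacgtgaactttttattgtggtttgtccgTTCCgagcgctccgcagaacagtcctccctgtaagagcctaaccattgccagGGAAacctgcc
The core GGAA, searched on both strands, was in 23 of the 26 HOX windows and in 95.4% of all 34943 distinct windows. A longer ETS motif, CCGGAAGT, searched on both strands, was in 0 of the 26 HOX windows and in 4.11% of all windows. The HOXA3 window shown holds 1 GGAA core, the fewest of those listed for the gene, and its other windows hold 3 to 5. These are letter matches in short windows, and they say nothing of binding.

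Tests were made in the 33 HOX genes with a mean of at least 1 FPKM over the 6 libraries. HOXA11, HOXA13, HOXB1, HOXD10, HOXD11 and HOXD12 fell below that level and are described only. The first comparison, Colo800 against A375, asks which HOX genes mark each line. Of the 33 tested members 16 were higher and 8 lower in Colo800 in the limma fit (adjusted p under 0.05), or 72.7%, against 57.1% of the 11129 genes tested (31.8% higher, 25.3% lower). HOXA2, HOXA7, HOXC5, HOXC12, HOXD1 and HOXD3 are among the 24, but averaged under 1 FPKM in 1 line and passed the filter on low values only through the line where they were high, so their values are given with no test. Among the 27 members with a mean of at least 1 FPKM in each line, a restriction chosen after seeing the data, 12 were higher and 6 lower in Colo800, or 66.7%, against 53.9% of the 10086 such genes (31.8% higher, 22.1% lower). The median log2 difference was 0.02 over these HOX genes and 0.09 over all such genes. In bulk RNA, fewer cells expressing a gene and less of its RNA per cell cannot be told apart.

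Of the 7 HOXA genes with a mean of at least 1 FPKM in each line, 6 were higher in Colo800 and HOXA9 did not pass. That is 85.7% of 7 genes, against 53.9% of all such genes (31.8% higher, 22.1% lower). HOXA3, which patterns the pharyngeal arches and the thymus in mice, was at 22.02, 42.3 and 70.6 FPKM with ETV1-sh2, ETV1-sh1 and scrambled in Colo800 and 4.43, 10.5 and 18.1 FPKM in A375 (log2 difference 1.97, limma adjusted p = 2.11e-04). HOXA4 stood at 49.4, 55.6 and 64.7 FPKM in Colo800 and 26.4, 23.2 and 22.5 FPKM in A375, and HOXA5 at 34.99, 83.2 and 63.5 FPKM in Colo800 and 23.5, 36.5 and 22.5 FPKM in A375. Both passed, at log2 differences of 1.19 and 1.06 (limma adjusted p = 0.00155 and 0.00497). HOXA6 and HOXA10 also passed, with differences of 0.71 and 0.42. The call of HOXA10 was lost with equal library medians (limma adjusted p = 0.0617) and without any 1 library (limma adjusted p = 0.0665 to 0.143). HOXA9 was at 1.68, 1.67 and 1.94 FPKM in Colo800 and 1.58, 1.18 and 0.518 FPKM in A375. HOXA7, a gene of the trunk region, was at 5.88, 7.799 and 6.44 FPKM in Colo800, against 0.494, 0.469 and 0.181 FPKM in A375. HOXA2, a gene of the hindbrain and the second pharyngeal arch, was at 2.37, 2.82 and 4.68 FPKM in Colo800 against 0.415, 0.411 and 0.417 FPKM in A375. Both genes averaged under 1 FPKM in A375 (0.382 for HOXA7 and 0.414 for HOXA2).

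At the posterior end of HOXA, the values of HOXA11 were higher in A375 and those of HOXA13 higher in Colo800, all at low levels. HOXA11, a limb and uterus gene, was listed at 0 in all 3 Colo800 libraries, against 1.602, 1.24 and 1.12 FPKM in A375. HOXA13, a gene of the digits and the genital tract, was at 1.33, 1.22 and 1.32 FPKM in Colo800 and 0.917, 0.503 and 0.367 FPKM in A375. Neither was tested, and no value of either gene was above 1.602 FPKM.

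Of the 7 HOXC genes with a mean of at least 1 FPKM in each line, 4 were lower in Colo800 and 3 did not pass. The share called was 57.1%, near the 53.9% of all such genes (31.8% higher, 22.1% lower). HOXC8, which acts at thoracic levels in mice, was at 2.65, 2.15 and 1.82 FPKM in Colo800 and 8.05, 8.901 and 9.21 FPKM in A375 (log2 difference -1.61, SE 0.183, limma adjusted p = 8.78e-04). HOXC10, a gene of lumbar levels and the hindlimb, was at 13.02, 12.4 and 15.2 FPKM in Colo800 against 38.1, 29.01 and 36.4 FPKM in A375 (log2 difference -1.28, limma adjusted p = 8.38e-04). HOXC12 was listed at 0 in all 3 Colo800 libraries and stood at 2.38, 1.77 and 2.26 FPKM in A375, and HOXC5 was at 0.876, 0.679 and 0.177 FPKM in Colo800 against 3.14, 1.62 and 2.396 FPKM in A375. HOXC13, a regulator of hair and nail keratins, was at 8.53, 3.79 and 3.43 FPKM in Colo800 against 13.3, 9.64 and 12.6 FPKM in A375, so that the highest Colo800 value lay just under the lowest of A375 (log2 difference -1.12). HOXC11 passed with a difference of -0.72. HOXC4, HOXC6 and HOXC9 did not pass, with differences of -0.39, -0.28 and -0.03. HOTAIR, the long noncoding RNA of the HOXC cluster, was at 0.265, 0.5104 and 0.942 FPKM in Colo800 and 3.05, 2.72 and 2.896 FPKM in A375.

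In the HOXD cluster 3 of the 4 genes with a mean of at least 1 FPKM in each line were higher in Colo800, and HOXD9 was lower. That is 100% of only 4 genes, against 53.9% of all such genes (31.8% higher, 22.1% lower). HOXD13, the digit gene at the posterior end, was at 4.65, 7.89 and 9.36 FPKM in Colo800 and 2.93, 2.34 and 4.402 FPKM in A375, and its difference of 0.96 passed. HOXD8 (0.93) and HOXD4 (0.70, or 1.103 with a pseudocount of 0.1) were the other higher genes. HOXD9, a limb gene, was at 4.23, 1.99 and 1.46 FPKM in Colo800 and 9.38, 4.31 and 4.06 FPKM in A375 (log2 difference -0.95). HOXD1 was at 1.25, 3.94 and 2.04 FPKM in Colo800 against 0.169, 0.358 and 0.233 FPKM in A375. HOXD3 was at 2.86, 1.44 and 1.02 FPKM in Colo800 against 1.31, 0.846 and 0.3496 FPKM in A375. HOXD11 was not tested and stood at 2.13, 1.74 and 1.58 FPKM in Colo800, against at most 0.0244 FPKM in A375.

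Of the 9 tested HOXB genes 3 were higher in Colo800, 1 was lower and 5 did not pass. The share called was 44.4%, below the 53.9% of all genes with a mean of at least 1 FPKM in each line (31.8% higher, 22.1% lower). HOXB8 was lower in Colo800, at 1.44, 3.26 and 5.12 FPKM in Colo800 against 14.04, 21.2 and 39.4 FPKM in A375 (log2 difference -2.58, SE 0.157, limma adjusted p = 1.47e-04). Its neighbour HOXB9 differed in the opposite direction, at 13.99, 39.9 and 19.4 FPKM in Colo800 and 5.47, 9.897 and 9.56 FPKM in A375 (log2 difference 1.36, limma adjusted p = 0.00265). HOXB3 (0.81) and HOXB7 (0.51) were also higher in Colo800. HOXB2, the most abundant HOXB gene of the A375 scrambled library, did not pass, with 52.8, 56.9 and 61.4 FPKM in Colo800 and 49.2, 54.2 and 66.6 FPKM in A375. HOXB4, HOXB5, HOXB6 and HOXB13 did not pass either, with differences from -0.26 to -0.03. The count of calls for the line difference was 15 of the HOX genes without the Colo800 scrambled library and 17 to 21 without any other single library. These counts take in HOXA2, HOXA7, HOXC5, HOXC12, HOXD1 and HOXD3 wherever they passed the filter. Those genes averaged under 1 FPKM in 1 line, so the counts overstate what was tested. Of the 18 genes called with a mean of at least 1 FPKM in each line, 10 kept their call without any 1 library. The other 8, among them HOXA6, HOXA10, HOXB7, HOXC11, HOXD4, HOXD8 and HOXD13, each lost it without at least 1 of the 6 (limma adjusted p = 0.0501 to 0.143).

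**Figure D2:**
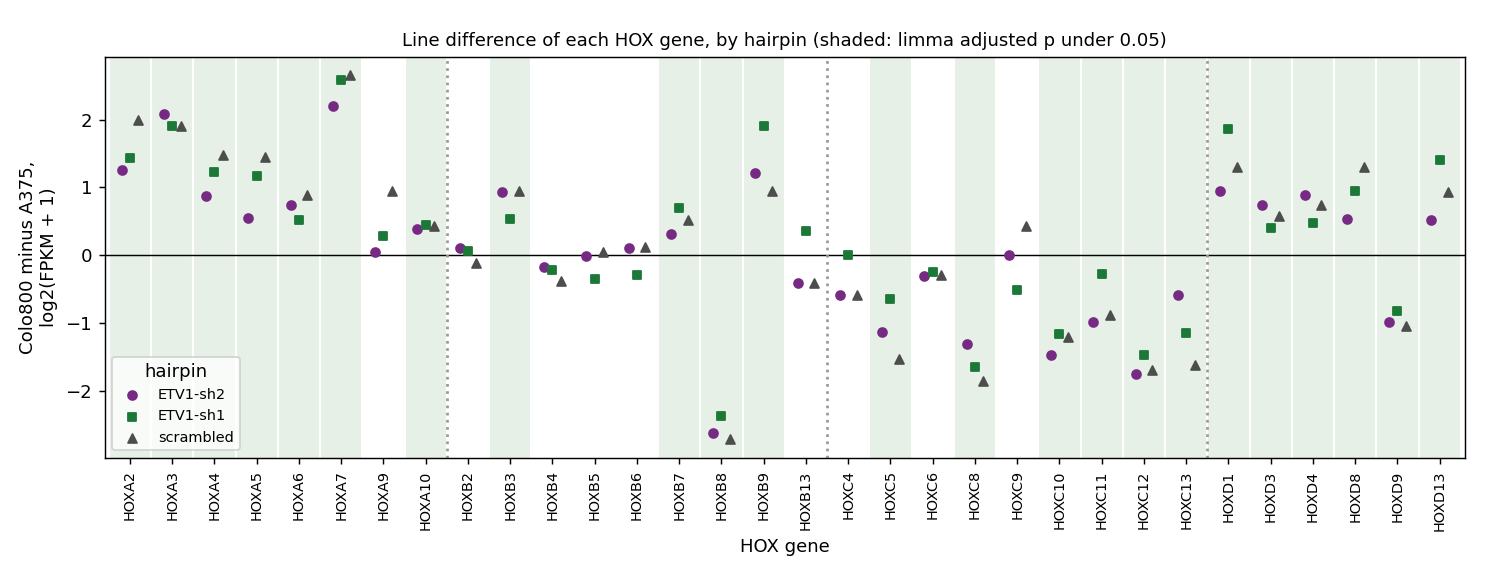
Colo800 minus A375 on the log2(FPKM + 1) scale for 32 tested HOX genes, with 1 point per hairpin and dotted lines between the clusters. Shaded genes passed an adjusted p of 0.05 in limma, of which HOXA2, HOXA7, HOXC5, HOXC12, HOXD1 and HOXD3 averaged under 1 FPKM in 1 line, and the HOXA points lie above 0 while most HOXC points lie below it.

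ETV1 knockdown was tested with both hairpins together, with the cell line as a block. No HOX gene of the 33 passed in the limma fit, nor did any other gene (0% of 11129), and 4 HOX genes (12.1%) had an unadjusted p under 0.05, against 1204 (10.8%) of all genes. These were HOXC6 (1.66, limma adjusted p = 0.223), HOXB8 (-1.04), HOXA3 (-1.23) and HOXD4 (0.70), as log2 changes. The median log2 change was 0.07 over the HOX genes and 0.01 over all genes. ETV1 itself did not pass here (log2 change -2.81, SE 0.938, limma adjusted p = 0.414). The fit counts a difference between the 2 ETV1 hairpins as spread, so the lack of a call does not mean no change. A fit with 3 hairpin levels gave each hairpin its own comparison with scrambled. In it ETV1 passed with ETV1-sh2 (-4.15, limma adjusted p = 0.00299) and with ETV1-sh1 (-1.47, limma adjusted p = 0.0331). Both of these comparisons use the same 2 scrambled libraries, so their values are given side by side and are not independent.

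With ETV1-sh2, 3 of the 33 tested HOX genes rose and 3 fell in the limma fit, or 18.2%, against 16.7% of all genes tested (7.73% higher and 9% lower). With ETV1-sh1, 1 rose and 1 fell, or 6.06%, against 2.28% of all genes (0.773% higher and 1.51% lower). The shares with ETV1-sh2 are near the background, so these calls describe single genes and not the HOX clusters as a group. Each of these 8 calls was lost without at least 1 of the 6 libraries, and all were lost with no filter on low values or with the cell line left out of the fit. Median log2 changes over the HOX genes were 0.03 with ETV1-sh2 and 0.05 with ETV1-sh1, against 0.05 and 0.00 over all genes.

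HOXC6, which acts in thoracic and forelimb patterning in mice, rose with both hairpins. It was at 22.7, 25.4 and 6.88 FPKM with ETV1-sh2, ETV1-sh1 and scrambled in Colo800, and at 28.4, 30.3 and 8.66 FPKM in A375. All 4 ETV1 hairpin libraries lay above both scrambled libraries, at 329.6% and 369.7% of the scrambled level in Colo800 and 328% and 349.9% in A375. The log2 change was 1.60 with ETV1-sh2 (SE 0.166, limma adjusted p = 0.00816) and 1.72 with ETV1-sh1 (SE 0.166, limma adjusted p = 0.0197). The difference between the hairpins was -0.12 (SE 0.166, limma adjusted p = 0.638) and did not pass. Whether the HOXC6 level follows the amount of ETV1 was not tested. Within a line, HOXC6 was the 1 HOX gene that both hairpins moved at least 2-fold in the same direction on the log2(FPKM + 1) scale, upward in Colo800 and in A375. This happened upward for 0.899% of all tested genes in Colo800 and 0.952% in A375, and downward for no HOX gene, against 0.908% and 1.63%. With a pseudocount of 0.1 HOXC5 joined it in Colo800 and HOXA7, HOXA9, HOXD3 and HOXD4 joined it in A375, all upward. With that pseudocount 2.25% of all genes in Colo800 and 2.07% in A375 moved upward, and 1.29% and 2.26% downward. The added HOX genes were low with the scrambled hairpin, HOXC5 at 0.177 FPKM in Colo800. In A375 HOXA7, HOXA9, HOXD3 and HOXD4 were at 0.181, 0.518, 0.350 and 0.512 FPKM with it. HOXC5, HOXA7 and HOXD3 passed the filter on low values only through the other line. Without either ETV1-sh1 library or either scrambled library the ETV1-sh1 call was lost (limma adjusted p = 0.111 to 0.241), and without the A375 scrambled library the ETV1-sh2 call was lost (limma adjusted p = 0.0614).

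The neighbours of HOXC6 in its cluster did not pass with either hairpin. HOXC4 was at 11.2, 7.93 and 7.58 FPKM with ETV1-sh2, ETV1-sh1 and scrambled in Colo800 and at 17.3, 7.92 and 11.9 FPKM in A375, at log2 changes of 0.50 with ETV1-sh2 and -0.24 with ETV1-sh1. HOXC5 stood at 0.876, 0.679 and 0.177 FPKM in Colo800 and 3.14, 1.62 and 2.396 FPKM in A375. HOXC8, on the other side, was at log2 changes of 0.10 and 0.06, and HOXC9 at 0.58 and -0.13. In GENCODE release 29 exons of HOXC6 overlap exons of HOXC4, of HOXC9 and of a gene named HOXC5 there, under another Ensembl identifier than that of the deposited table, on the same strand, and of HOXC-AS2 on the other strand. No source used here says how such fragments were split between genes, so the values of overlapping genes are uncertain. Exons of 8 HOX genes overlapped those of another HOX gene on the same strand, and 25 of the 38 members matched there overlapped some other gene.

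Neither paralogue of HOXC6 passed. HOXA6 was at 4.07, 6.61 and 4.27 FPKM in Colo800 and 2.03, 4.31 and 1.85 FPKM in A375, with the ETV1-sh1 value the highest of each line. Its log2 change was 0.02 with ETV1-sh2 and 0.71 with ETV1-sh1. HOXB6 was at log2 changes of -0.06 and 0.09.

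**Figure D3:**
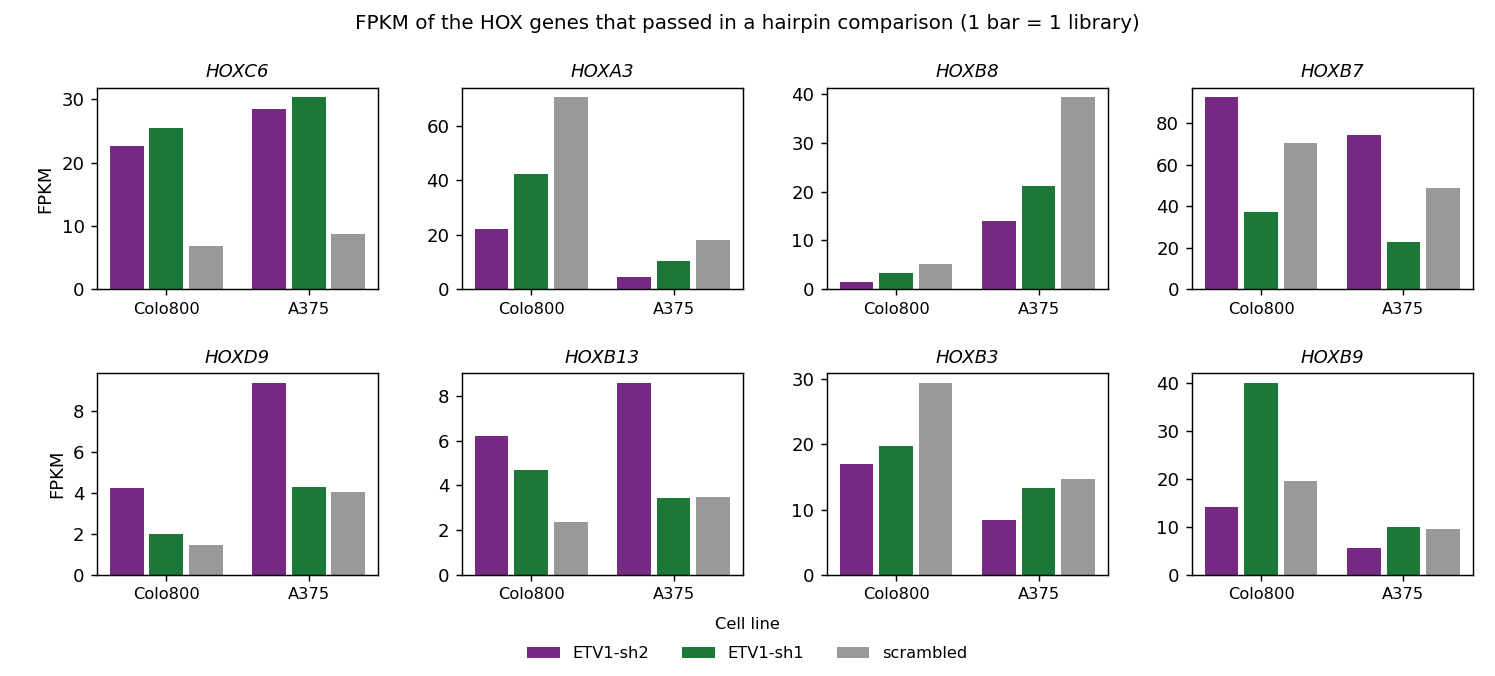
FPKM in each of the 6 libraries of the 8 HOX genes that passed in at least 1 comparison of hairpins, with Colo800 on the left and A375 on the right of each panel. Each bar is 1 library, so there are no error bars. HOXC6 is at 22.7 to 30.3 FPKM in the 4 ETV1 hairpin libraries and at 6.88 and 8.66 FPKM in the scrambled ones.

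HOXA3 and HOXB8 fell with ETV1-sh2 and had intermediate levels with ETV1-sh1. HOXA3 was at 22.02, 42.3 and 70.6 FPKM with ETV1-sh2, ETV1-sh1 and scrambled in Colo800 and at 4.43, 10.5 and 18.1 FPKM in A375. The order scrambled, ETV1-sh1, ETV1-sh2 from high to low was the same in both lines. Its log2 change was -1.73 with ETV1-sh2 (SE 0.169, limma adjusted p = 0.00806) and -0.73 with ETV1-sh1 (SE 0.169, limma adjusted p = 0.0907), and the hairpins differed (log2 difference -0.99, limma adjusted p = 0.0177). HOXB8, which acts in haematopoietic progenitors and the spinal cord in mice, was at 1.44, 3.26 and 5.12 FPKM in Colo800 and 14.04, 21.2 and 39.4 FPKM in A375. ETV1-sh2 left 28.1% of the scrambled level in Colo800 and 35.7% in A375. The log2 change was -1.38 with ETV1-sh2 (SE 0.193, limma adjusted p = 0.01301) and -0.69 with ETV1-sh1 (limma adjusted p = 0.131). Without the A375 scrambled library the ETV1-sh2 call of HOXA3 had a limma adjusted p of 0.0596 and that of HOXB8 0.0978. Without the Colo800 scrambled library HOXB8 was at 0.0543. The HOXA3 difference between hairpins was lost without either ETV1-sh1 library (limma adjusted p = 0.101 to 0.1196).

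HOXB3, the HOXB paralogue of HOXA3, was also lower with ETV1-sh2. It was at 17.02, 19.8 and 29.4 FPKM in Colo800 and 8.45, 13.3 and 14.7 FPKM in A375 (log2 change -0.75, SE 0.191, limma adjusted p = 0.0465). Its call rests on all 6 libraries, as leaving out any 1 of them gave a limma adjusted p of 0.0605 to 0.269, and with no variance trend it was 0.0547. The third paralogue, HOXD3, was at 2.86, 1.44 and 1.02 FPKM in Colo800 and 1.31, 0.846 and 0.3496 FPKM in A375, with the scrambled value the lowest of each line, and did not pass (log2 change 0.85 with ETV1-sh2, limma adjusted p = 0.0603).

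HOXD9 and HOXB13 rose with ETV1-sh2. HOXD9 was at 4.23, 1.99 and 1.46 FPKM with ETV1-sh2, ETV1-sh1 and scrambled in Colo800 and at 9.38, 4.31 and 4.06 FPKM in A375 (log2 change 1.06, SE 0.207, limma adjusted p = 0.0241). With ETV1-sh1 it changed by 0.18 and did not pass, and the hairpins differed by 0.89 (limma adjusted p = 0.0407). HOXB13, a gene of the tail end of the body and the prostate, was at 6.23, 4.69 and 2.37 FPKM in Colo800 and 8.59, 3.43 and 3.47 FPKM in A375 (log2 change 1.10, SE 0.264, limma adjusted p = 0.0393). With ETV1-sh1 HOXB13 stood at 198% of the scrambled level in Colo800 and 98.7% in A375. The HOXD9 call held without the Colo800 ETV1-sh2 library and was lost without any other single one (limma adjusted p = 0.0534 to 0.138). Its difference between hairpins was lost without any 1 of the 6 (limma adjusted p = 0.0669 to 0.194). The HOXB13 call was lost without either scrambled library, the A375 ETV1-sh2 library or the Colo800 ETV1-sh1 library (limma adjusted p = 0.0508 to 0.209).

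**Figure D4:**
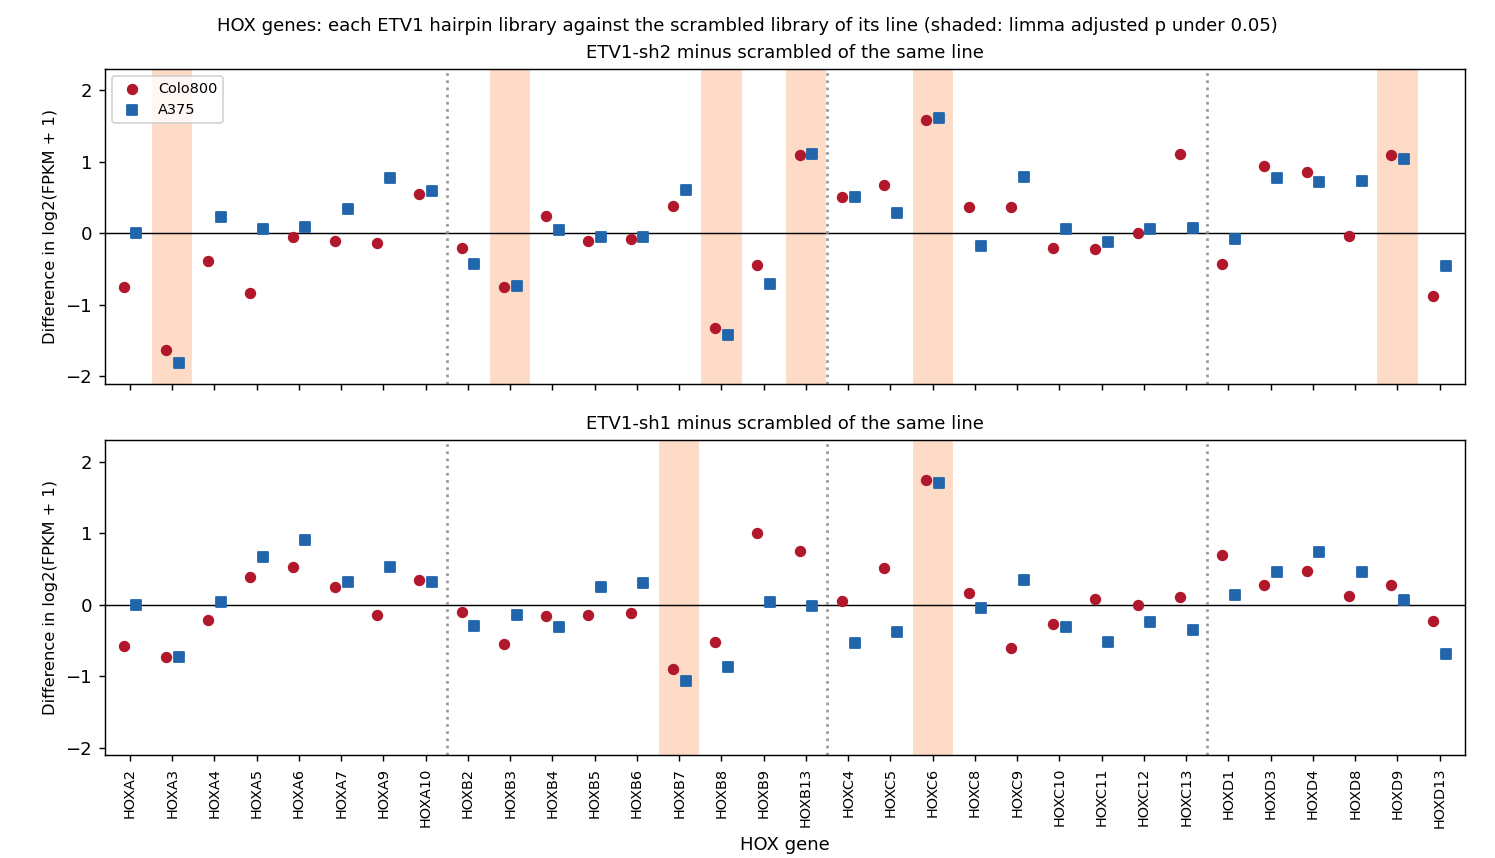
Difference of each ETV1 hairpin library from the scrambled library of the same line on the log2(FPKM + 1) scale, for 32 tested HOX genes, with ETV1-sh2 above and ETV1-sh1 below. Circles are Colo800 and squares A375, dotted lines part the clusters and shaded genes passed in limma. HOXC6 lies between 1.59 and 1.75 in all 4 libraries, and HOXB7 is below 0 in the lower panel and above 0 in the upper one.

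The hairpins were also set against each other, ETV1-sh2 against ETV1-sh1. In limma 2 HOX genes were higher and 2 lower with ETV1-sh2, or 12.1% of the 33, against 13.7% of all genes (6.82% higher and 6.91% lower), a share near the background. All 4 were lost with no filter on low values or with the cell line left out. HOXB7, a gene reported to raise FGF2 in melanoma cells, had opposite signs with the hairpins. It was at 92.6, 37.4 and 70.6 FPKM with ETV1-sh2, ETV1-sh1 and scrambled in Colo800 and at 74.5, 22.7 and 48.7 FPKM in A375, with ETV1-sh2 the highest and ETV1-sh1 the lowest of each line. The log2 difference between the hairpins was 1.48 (SE 0.171, limma adjusted p = 0.00804). Against scrambled HOXB7 fell with ETV1-sh1 (-0.98, limma adjusted p = 0.0461) and did not pass with ETV1-sh2 (0.49, limma adjusted p = 0.0952). The fall with ETV1-sh1 was lost with no variance trend (limma adjusted p = 0.07603) and without either ETV1-sh1 or either scrambled library (limma adjusted p = 0.241 to 0.272). The difference between hairpins was lost without either ETV1-sh1 library (limma adjusted p = 0.0779 to 0.0966). HOXB9 was lower with ETV1-sh2, at 13.99, 39.9 and 19.4 FPKM in Colo800 and 5.47, 9.897 and 9.56 FPKM in A375 (log2 difference -1.10, limma adjusted p = 0.0424). Its ETV1-sh1 value in Colo800 was the highest of the 6 libraries, and without that library the difference was -0.69 (limma adjusted p = 0.183). The call was also lost without the A375 ETV1-sh1 library (0.0972) and the Colo800 ETV1-sh2 library (0.08005).

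Across the 33 HOX genes the ETV1-sh2 minus scrambled differences of Colo800 and A375, which share no library, had a Pearson r of 0.833, against 0.656 across all 11129 genes. With ETV1-sh1 r was 0.663 across the HOX genes and 0.526 across all genes. These are correlations across genes, which are not independent replicates, and are given as a description. The signs of the 2 lines were the same for 72.7% of HOX genes with ETV1-sh2 and 63.6% with ETV1-sh1, against 76.1% and 66.6% of all genes. The difference of the hairpin effect between Colo800 and A375 was tested as an interaction of line and knockdown. No HOX gene passed in limma (0% of all genes did), none had an unadjusted p under 0.05, and 66 of all 11129 genes (0.593%) had one. The spread in this fit is the gap between the 2 ETV1 hairpins of a line (SE 2.06 for ETV1). The test could therefore miss a difference between the lines, and no conclusion is drawn from it.

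Most HOX genes did not pass with either hairpin. HOXB2, HOXB4, HOXB5 and HOXB6 lay between 73.8% and 126% of their scrambled level in the 4 ETV1 hairpin libraries. HOXA10, a gene of the uterus and the lower trunk, lay above it in all 4, at 54.4, 47.1 and 36.9 FPKM with ETV1-sh2, ETV1-sh1 and scrambled in Colo800 and 41.2, 34.2 and 27.1 FPKM in A375 (log2 change 0.57 with ETV1-sh2, limma adjusted p = 0.0554). HOXD4 was likewise above it in all 4, at 3.59, 2.49 and 1.52 FPKM in Colo800 and 1.49, 1.52 and 0.512 FPKM in A375 (0.79 with ETV1-sh2, limma adjusted p = 0.06998). HOXD13 lay below it in all 4, with log2 changes of -0.67 with ETV1-sh2 and -0.46 with ETV1-sh1.

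The DNA-binding partners of HOX proteins were counted in the same way. Of the 8 TALE partners tested 2 rose and 1 fell with ETV1-sh2, and 1 rose and 1 fell with ETV1-sh1. These are 37.5% and 25% of the list, against 16.7% and 2.28% of all genes tested, in a list of 8 genes. PBX2, which is broadly expressed, was at 57.8, 42.8 and 19.1 FPKM with ETV1-sh2, ETV1-sh1 and scrambled in Colo800 and at 49.6, 30.9 and 17.4 FPKM in A375 (log2 change 1.504 with ETV1-sh2, limma adjusted p = 0.00906; 0.96 with ETV1-sh1, limma adjusted p = 0.05004). MEIS3, a hindbrain cofactor, was at 9.43, 14.03 and 4.34 FPKM in Colo800 and 15.3, 17.02 and 3.76 FPKM in A375, and passed with ETV1-sh2 (1.37, limma adjusted p = 0.0196) and ETV1-sh1 (1.71, limma adjusted p = 0.0337). PKNOX2, a partner of PBX proteins, was at 3.62, 2.88 and 10.4 FPKM in Colo800 and 0.282, 0.525 and 4.24 FPKM in A375, with both scrambled libraries the highest of their line. It fell with ETV1-sh2 (-1.67, limma adjusted p = 0.0155) and ETV1-sh1 (-1.67, limma adjusted p = 0.0398). MEIS1 and MEIS2 did not pass with either hairpin. PBX3, chosen after its values were seen, was at 14.2, 51.8 and 56.2 FPKM in Colo800 and 16.5, 62.6 and 23.4 FPKM in A375, lower with ETV1-sh2 than with ETV1-sh1 (-1.83, limma adjusted p = 0.0286).

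**Figure D5:**
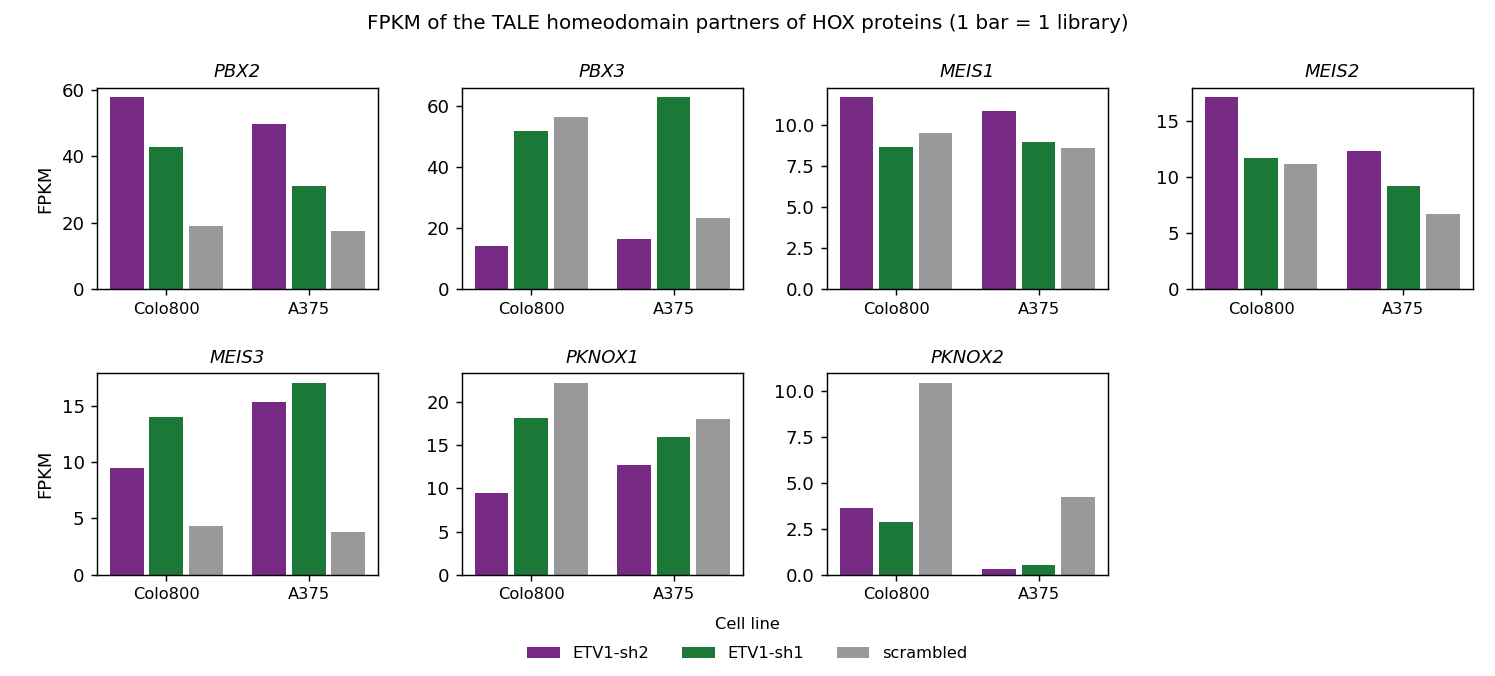
FPKM in each library of 7 TALE homeodomain genes, whose proteins bind DNA with HOX proteins, with Colo800 on the left and A375 on the right of each panel. Each bar is 1 library. MEIS3 is lowest in the scrambled library of each line.

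Among the genes that keep HOX clusters silent, 5 of the 28 Polycomb genes rose with ETV1-sh2 and 2 fell, or 25%, against 16.7% of all genes tested (7.73% higher and 9% lower). CBX7, a reader of the Polycomb mark, was at 19.4, 7.76 and 3.42 FPKM with ETV1-sh2, ETV1-sh1 and scrambled in Colo800 and at 14.6, 5.82 and 3.76 FPKM in A375 (log2 change 1.96, limma adjusted p = 0.00868). CBX6 (1.11) and RING1 (1.01) rose as well, and MTF2, which recruits Polycomb repressive complex 2, fell (-1.04, limma adjusted p = 0.0158). With ETV1-sh1 only CBX6 of these 28 passed, upward, or 3.57% against 2.28% of all genes. The median of the list was 0.01 with ETV1-sh2, against 0.05 over all genes. Of the 12 trithorax and demethylase genes none passed with ETV1-sh2 in limma, with KDM6B at 0.98 and SETD1A at 0.68. Their list has 21 entries, and only these 12 were found by symbol. No MLL methyltransferase gene is among them. Of the 12, 5 had an unadjusted p under 0.05, where 35.6% of all genes did. None of the 7 boundary and cohesin genes found, of 9 entries, passed with ETV1-sh2, with SMC1A at -0.54 and SMC3 at -0.39. Of the 7, 1 had an unadjusted p under 0.05, against the same 35.6%. With ETV1-sh1 1 gene of each list fell, ASH2L and NIPBL, both named after their values were seen. These are 8.33% and 14.3% of lists of 12 and 7 genes, against 2.28% of all genes (1.51% lower).

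Retinoic acid is the classic inducer of HOX genes. Of the 10 genes of its signalling that were tested, CYP26B1, which degrades retinoic acid, and the receptor RXRB rose with ETV1-sh2, at log2 changes of 1.42 and 0.87, and the receptor RXRG fell (-1.78). These are 30% of the list, against 16.7% of all genes with ETV1-sh2. None passed with ETV1-sh1 in limma (2 had an unadjusted p under 0.05, where 18.8% of all genes did). HOTAIRM1, a long noncoding RNA of the HOXA cluster, was at 21.04, 25.4 and 27.7 FPKM in Colo800 and 6.15, 5.33 and 18.4 FPKM in A375. Neither HOTAIRM1 nor HOTAIR passed with a hairpin in limma. Only these 2 of the 21 entries for noncoding RNAs of the HOX clusters were found by symbol. With each hairpin 1 of these 2 had an unadjusted p under 0.05, where 35.6% (ETV1-sh2) and 18.8% (ETV1-sh1) of all genes did. Of the 17 genes flanking the clusters that were tested, CALCOCO1, near HOXC, and TTLL6, near HOXB, rose with ETV1-sh2 (0.74 and 1.17), or 11.8%, against 16.7% of all genes. TTLL6 was at 0.762, 0.0857 and 0 FPKM in Colo800 and 8.27, 2.51 and 2.22 FPKM in A375. It averaged 0.283 FPKM in Colo800 and passed the filter on low values only through A375. CALCOCO1 was at 21.7, 31.6 and 12.9 FPKM in Colo800 and 69.6, 80.1 and 40.6 FPKM in A375, and it also rose with ETV1-sh1 (1.10, limma adjusted p = 0.0399). With ETV1-sh1 SKAP2, near HOXA and chosen after its values were seen, fell (-1.27), so that 2 of the 17 passed with it (11.8% against 2.28% of all genes). Of 24 other homeobox genes tested 1 passed with ETV1-sh2 (4.17% against 16.7%). This was DLX4, at 4.78, 2.31 and 0.698 FPKM in Colo800 and 4.06, 0.963 and 0.692 FPKM in A375, which averaged under 1 FPKM with the scrambled hairpin and passed the filter on low values only through the ETV1 hairpin libraries. SATB1, named after its values were seen, rose with ETV1-sh1, as 1 of the 24 (4.17% against 2.28% of all genes).

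Of the 7 fibroblast markers 4 passed the filter on low values and 3 of these rose with ETV1-sh2 (COL1A1, PDGFRB and LUM), or 75%, against 7.73% of all genes tested. COL1A2, the partner chain of COL1A1, was not tested and stood at 1.32, 0.178 and 1.78 FPKM in Colo800 and 0.01302, 0.0726 and 0.00967 FPKM in A375. The 7 fibroblast markers in the table summed to 31.7 FPKM with ETV1-sh2, 13.2 with ETV1-sh1 and 11.6 with scrambled in Colo800, and to 36.1, 16.9 and 13.4 FPKM in A375. COL3A1 stayed under 1 FPKM in every library. Of the 8 melanocyte markers tested 2 fell with ETV1-sh2 (S100B and SLC45A2), or 25%, against 9% of all genes lower. The log2 change was negative in 7 of the 8 and positive in 1. With ETV1-sh1 only S100B fell, or 12.5% against 1.51% of all genes lower, and the change was negative in 5 and positive in 3. The 11 melanocyte markers in the table summed to 871, 932 and 1331 FPKM in Colo800 and to 482, 414 and 700 FPKM in A375. SOX10 and S100B were most of these sums. They were at 712 and 305 FPKM in the Colo800 scrambled library and at 556 and 118 FPKM in that of A375. Of the 6 leukocyte markers 5 were under 1 FPKM in every library, and CD68 was at 76.6, 139 and 104 FPKM in Colo800 and 306, 79.2 and 87.5 FPKM in A375. Of the 10 keratinocyte and epithelial markers 5 were under 1 FPKM in every library, CDH1 and KRT5 among them, and the list summed to 19.2, 16.4 and 8.98 FPKM in Colo800 and to 36.3, 48.4 and 48.1 FPKM in A375. Of the 5 endothelial markers 3 were under 1 FPKM in every library, VWF, CDH5 and TEK, and the list summed to 1.42, 2.57 and 2.54 FPKM in Colo800 and to 3.34, 11.3 and 3.44 FPKM in A375. The part of these genes in the HOX changes was not tested.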

How the data were processed

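FPKM values are the authors' own. The submitters' processing notes name STAR 2.4, Cufflinks 2.2.1, Cuffnorm and hg19, with no roles or order. Unknown, as not given in the sources used here, were annotation, filters, strandedness and scaling. The deposited FPKM table has 17468 genes, and its 6 columns were matched to samples by title. Symbols were used as given. Values of some genes counted here are not reported. The reference is GRCh38 (RefSeq promoters, GENCODE 29 overlaps by Ensembl identifier), so the files' genes carry no coordinates.

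Computed here: log2(FPKM + 1), the mean filter of 1 FPKM, and limma 3.58.1 in R 4.3.3 (lmFit, eBayes with a variance trend) over all 11129 genes passing it, with Benjamini-Hochberg adjustment over all of them and a threshold of 0.05. On that scale low genes show less than their true fold change. ETV1 hairpins against scrambled used the cell line as a block (3 residual degrees of freedom), the 3-level fit the line and hairpin (2), and the difference of the hairpin effect between lines a mean per line and knockdown state (2). Libraries are paired by cell line. The fits were tested on simulated data. Relative depth is the commonest ratio of low values between libraries. Named partner genes were those past the threshold with ETV1-sh2 (up to 4 per list), or else the 2 with the smallest p. The members and lists were chosen with earlier results of these data known. Alternatives changed the pseudocount, the filter, the variance trend, the scaling, the block and the libraries used.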

Additional observations from a re-analysis of the deposited data

Results flagged for a closer look

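In 3 of the 33 tested HOX genes both ETV1 hairpins moved 1 line up and the other down against its scrambled library. How many of all genes did so was not counted, so this describes single genes. The signs of the lines were the same for 76.1% of all genes with ETV1-sh2 and 66.6% with ETV1-sh1. HOXA9 was at -0.13 and -0.14 on the log2(FPKM + 1) scale with ETV1-sh2 and ETV1-sh1 in Colo800, and at 0.77 and 0.52 in A375 (difference -0.78, limma adjusted p = 1.00). HOXA4 was at -0.38 and -0.22 in Colo800 and at 0.23 and 0.05 in A375 (difference -0.43, limma adjusted p = 1.00). HOXC8 was at 0.37 and 0.16 in Colo800 and at -0.17 and -0.04 in A375 (difference 0.37, limma adjusted p = 1.00). None of these differences passed, in a fit that takes the gap between the hairpins as spread and could miss a difference.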

How the results depend on the processing

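No gene was called with both hairpins together or for the difference of the hairpin effect between Colo800 and A375 under any alternative. With no filter on low values, and likewise with no replicate block (cell line left out), 0 HOX genes passed for ETV1-sh2 against scrambled (6 in the reported fit), 0 for ETV1-sh1 against scrambled (2) and 0 for ETV1-sh2 against ETV1-sh1 (4). Under both no gene at all passed in these 3 comparisons. The block follows the pairing by cell line. With no variance trend 1 HOX gene passed with ETV1-sh1. Leaving out each library in turn gave 0 to 5 HOX genes with ETV1-sh2, 0 to 3 with ETV1-sh1, 0 to 5 between the hairpins and 15 to 21 for the line difference (24). The counts for the line difference include genes that averaged under 1 FPKM in 1 line and are given with no test. The number of all genes called also moved widely between the hairpin fits without 1 library. The HOX counts of those fits are therefore no result about the HOX genes. Fits without 1 library keep 1 residual degree of freedom, and where a hairpin has 1 library left, that library is assumed to vary like the rest. The difference of the hairpin effect between lines could not be fitted without either scrambled library. Within a line, a pseudocount of 0.1 gave 2 HOX genes moved at least 2-fold by both hairpins in Colo800 and 5 in A375, and a 1.5-fold limit gave 3 and 4, against 1 each. The share of all genes at the 1.5-fold limit was not counted, so those counts have no background. The genes added by the pseudocount were under 1 FPKM in the scrambled library of that line. Counts of HOX genes at 0.5 or 2 FPKM stayed within 1.5 times of those at 1 FPKM in every library. The cause of these losses was not tested. No called log2 change reversed under an alternative. Absolute depth is unknown, which leaves the precision of low genes unknown.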
